A study of Mus musculus with 8 samples.

Results

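Regulatory T (Treg) cells of the thymus were compared with those of the spleen in mice heterozygous for a deletion of the miR-181a/b-1 microRNA cluster (miR-181a/b-1+/-, HET), which the study used as its control genotype. The comparison rests on 4 of the 8 arrays of the series, 2 titled thymus miR-181-HET and 2 titled spleen miR-181-HET, and was read for 22180 genes with 1 probe set each. All mice were on the C57Bl/6J background and carried a green fluorescent protein (GFP) reporter driven from the Foxp3 locus. Foxp3(GFP)+CD4+CD25+ cells were sorted on ice-kept suspensions of each organ, for which the labels name no drug or other agent, and each array held RNA pooled over mice. Pool 1 held 4 mice, 3 of them labelled female, and pool 2 held 5, 4 of them labelled female, and each pool gave 1 thymus and 1 spleen array. The study's figure legend gives larger pools, and the labels were followed. The remaining 4 arrays came from 2 pools of miR-181a/b-1-/- (KO) mice (3 mice each, 2 labelled female). They did not enter the difference between the HET organs. They were used for the spread between arrays and as a comparison in other mice. The labels give no age per pool. Foxp3+ cells of a thymus can be newly made there or have come back from the circulation, and the sort did not separate these.

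The labelled cell type was checked first. The Treg cell markers Foxp3, Il2ra, Ctla4, Ikzf2, Tnfrsf18, Cd4 and Cd3e lay between 9.09 and 11.67 on the log2 intensity scale on the 4 HET arrays. As a measure of background, 1105 olfactory receptor genes had a median level of 2.64 and a 95th percentile of 4.63, and a level under 4.63 is read here only as a bound. Array medians lay between 4.58 and 4.70. The labelled sexes did not match the transcripts: Xist, which silences 1 X chromosome in female cells, read 3.90 and 4.40 in the HET thymus and 3.89 and 3.58 in the HET spleen, all under the background bound, while the KO arrays read 8.80 to 9.40. Eif2s3y, Kdm5d and Uty, which lie on the Y chromosome, were over background on all 8 arrays. Both HET organs shared this, and Xist was not called between them (difference 0.41, 95% confidence interval (CI) -0.05 to 0.87).

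MicroRNAs of one family share bases 2 to 8, the seed, through which they find their targets. miR-181a and miR-181b come from 1 transcript of chromosome 1 and are abundant in immature thymocytes, where they raise the sensitivity of the T cell receptor (TCR). Treg cells arise in the thymus from CD4 single-positive thymocytes that received strong TCR signals, leave for the blood, and in the spleen form a mixture of resting and activated cells. The mature strands of the deleted cluster are shown because HET and KO cells differ in them, and those of miR-142 because Mir142 was the only microRNA gene called higher in the HET spleen. They are given as in RefSeq (GRCm38.p6, chr1:137966468-137966490 and chr1:137966650-137966673 for miR-181, chr11:87756867-87756887 and chr11:87756903-87756925 for miR-142, all on the + strand), with the seed in capitals.
miR-181a-5p: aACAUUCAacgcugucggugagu
miR-181b-5p: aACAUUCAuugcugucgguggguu
miR-142a-5p: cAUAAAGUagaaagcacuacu
miR-142a-3p: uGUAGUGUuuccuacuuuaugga
Both miR-181 strands carry the seed ACAUUCA. Mir181a-1 read 2.48 and 2.16 in thymus and 2.14 and 2.37 in spleen, and Mir181b-1 read 3.44 and 2.59 in thymus and 2.60 and 2.31 in spleen. All of these lay under background, so the arrays gave no level for the cluster. Mir142, whose products are abundant in all blood cells, read 6.33 and 6.49 in thymus and 7.49 and 7.48 in spleen. It was lower in thymus by 1.07 on the log2 scale without overlap (CI -1.37 to -0.77, adjusted p = 0.00307), and the KO arrays gave -1.10. Mir1960 was higher in thymus by at least 0.87 on that scale, a call lost without spleen HET replicate 2 (adjusted p = 0.0988).

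At the threshold used throughout, a limma adjusted p under 0.05 over all 22180 genes, 266 genes differed between thymic and splenic HET Treg cells (1.2%). Higher in thymus were 137 genes (0.618%) and higher in spleen 129 (0.582%). The called differences had a median size of 0.89 on the log2 scale, against 0.13 over all genes, and 97 of them were over 2-fold. Over all genes 52.5% had a positive difference, the share to set beside the sign counts of the gene lists below. Replicate arrays differed by a median of 0.16 in thymus and 0.11 in spleen. The 4 arrays did not overlap between organs for all 266 called genes, and for 44.9% of all genes. Of the called genes, 232 were over background in both organs, 28 in 1 organ only, and 6 in neither. The plot of level against difference shows called genes at all levels over background. In bulk RNA, fewer cells of a kind and less RNA per cell cannot be told apart.

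**Figure D1:**
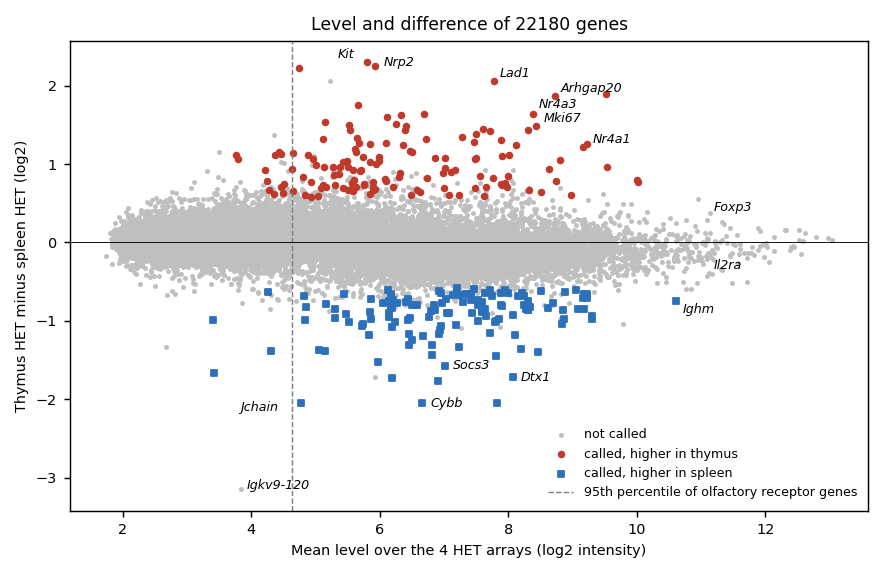
Mean level over the 4 HET arrays (x axis, log2 intensity) against the difference thymus HET minus spleen HET (y axis, log2) for 22180 genes, 1 point per gene. Red circles are the 137 genes called higher in thymus, blue squares the 129 called higher in spleen, grey points the other genes, and the dashed line the background bound of 4.63; the lowest point, an immunoglobulin kappa segment at -3.15, was not called.

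With 2 arrays a group, the number of calls depended on single arrays. It was 189 without thymus HET replicate 1, 126 without thymus HET replicate 2, 82 without spleen HET replicate 1 and 64 without spleen HET replicate 2. None of the 266 differences changed its sign in any setting that kept 1 value per gene. The naming rule given with the processing picked 81 called genes. Some of these are not described in the text, and some called genes in the text, such as Rel and H2bc3, are outside the 81. Of the 81, 29 stayed called without any 1 of the 8 arrays and under the other settings that kept 1 value per gene. These are referred to as stable calls. The term does not cover the fit of every probe set tested alone, which called 16 of 23521 probe sets with 1 gene symbol. Not all stable calls can have passed there.

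The called gene with the largest difference was Kit, the receptor for stem cell factor on progenitor cells. Kit read 7.22 and 6.67 in thymus and 4.65 and 4.63 in spleen, so that the splenic arrays lay at the background bound. The difference was 2.30 (CI 1.90 to 2.70, adjusted p = 0.000137), or 4.92-fold. Nrp2, a neuropilin that binds semaphorins and growth factors, read 7.12 and 7.0 in thymus and 5.03 and 4.59 in spleen (difference 2.25, adjusted p = 0.000244). Both thymic arrays stood above both splenic arrays for each of these receptors. Lad1, a component of epithelial basement membranes, read 8.73 and 8.87 against 6.83 and 6.66 (2.06, adjusted p = 0.000137), and Arhgap20 read 9.57 and 9.73 against 7.70 and 7.88 (1.87, adjusted p = 0.000137). Adgrg1, an adhesion G-protein-coupled receptor, read 6.43 and 6.65 against 4.86 and 4.70 (1.76, adjusted p = 0.000815). Pde7b, a phosphodiesterase that breaks down cyclic AMP, lay under background in spleen at 3.51 and 3.75 and read 6.08 and 5.63 in thymus, which makes it at least 2.34-fold higher. Tff1, a secreted trefoil peptide of mucous epithelia, read 6.97 and 7.05 against 5.70 and 5.31 (1.51, adjusted p = 0.000812). These 7 genes were stable calls with no overlap between organs.

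Lox, an enzyme that cross-links collagen, was also among the 15 largest thymic differences, but with a wide spread: 6.33 and 5.51 in thymus against 4.46 and 4.31 in spleen, or at least 2.44-fold higher (adjusted p = 0.00944). Its call was lost without spleen HET replicate 1 or 2 (highest adjusted p = 0.0926). The histone gene H2ac10 read 10.26 and 10.68 in thymus and 8.72 and 8.42 in spleen (1.90, adjusted p = 0.000308). Histone genes of this cluster are nearly identical in sequence, and the probe set may read several of them. Of 29 measured genes of the replication-dependent and linker histone clusters, 19 had a positive difference (median 0.26), against 52.5% of all genes. Most of the 29 lay under background in both organs, among them the gene at the median, H2bc14. The sign count and median therefore rest largely on levels that are only bounds. H2ac10 and H2bc3 were called, H2bc3 not without any 1 of the HET arrays (highest adjusted p = 0.266). The plot of levels by array shows the 15 largest called differences of each direction.

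**Figure D2:**
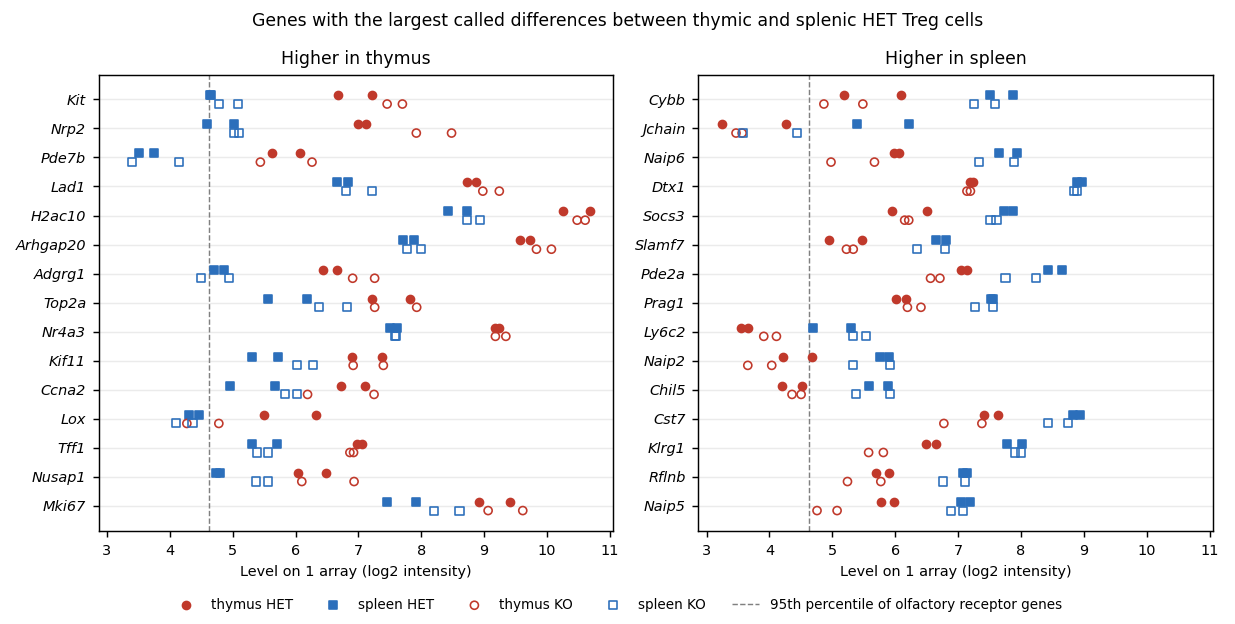
Levels on each array (x axis, log2 intensity) of the 15 genes with the largest called differences higher in thymus (left) and higher in spleen (right), 1 row per gene. Filled symbols are HET and open symbols KO arrays, red circles thymus, blue squares spleen, and the dashed line the background bound of 4.63; filled red and blue symbols do not overlap in any row.

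Genes that respond to TCR signals were examined as a list, since thymic Treg cells are made under such signals. Of 20 measured members, 5 were called, all higher in thymus, and the list median was 0.21 against 0.01 over all genes. The 3 NR4A nuclear receptors, which are switched on by TCR signals, were all among them. Nr4a3 read 9.17 and 9.23 in thymus and 7.50 and 7.62 in spleen (difference 1.64, CI 1.37 to 1.91, adjusted p = 0.000137). Nr4a1, which encodes Nur77, read 9.88 and 9.68 against 8.58 and 8.54 (1.22, CI 0.90 to 1.53, adjusted p = 0.00256), and Nr4a2 read 7.05 and 7.10 against 6.03 and 5.81 (1.15, CI 0.85 to 1.45, adjusted p = 0.00267). All thymic arrays lay above all splenic arrays for each of the 3, and all were stable calls. Dusp5, a phosphatase that dampens ERK kinases, was higher by 0.85 (adjusted p = 0.00944) and Rel, an NF-kappaB subunit with a role in Foxp3 induction, by 0.76 (adjusted p = 0.0113). Rel was lost without any 1 of the HET arrays (highest adjusted p = 0.131). The Dusp5 call was lost without thymus HET replicate 1, spleen HET replicate 1 or spleen HET replicate 2 (highest adjusted p = 0.139).

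Other members of that list did not pass. Egr1, Egr2 and Egr3, transcription factors downstream of ERK, differed by 0.23, 0.02 and 0.01. Cd5, a surface regulator of TCR signals, read 10.96 and 10.81 in thymus and 10.90 and 10.89 in spleen, and Cd69, an early activation antigen, differed by -0.13 (CI -0.45 to 0.19). The proapoptotic gene Bcl2l11 had a difference of -0.53 (adjusted p = 0.233). Of 19 measured genes of proximal TCR signalling, such as receptor chains and kinases, 0 were called, with a list median of -0.15 and differences between -0.36 (Prkcq) and 0.11 (Themis). Of 16 immediate early and stress genes, Zfp36, which destabilises cytokine mRNAs, was called lower in thymus (-0.69, adjusted p = 0.0320), a call lost without any 1 of the 4 HET arrays (highest adjusted p = 0.266). Fos and Jun, the subunits of AP-1, had differences of -0.40 and -0.43 and did not pass.

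Of the lists, that of the cell cycle held the most calls, and it was also the longest. Of 28 measured cell cycle genes, all had a positive difference, with a median of 0.63. Of these, 10 were called higher in thymus, against 0.618% of all genes. By share the list did not lead, as 4 of 9 measured genes of functional maturation were called. Top2a, the topoisomerase that untangles replicated DNA, read 7.82 and 7.22 in thymus and 6.18 and 5.57 in spleen (1.64, CI 1.06 to 2.23, adjusted p = 0.0121). Kif11, a spindle motor, read 7.37 and 6.90 against 5.71 and 5.31 (1.63, adjusted p = 0.00307), and Mki67, a marker of cycling cells, 9.42 and 8.92 against 7.92 and 7.46 (1.48, adjusted p = 0.00937). Both thymic arrays were higher than both splenic arrays, and replicate 1 was higher than replicate 2 in each organ. That order of pools held for 25 of the 28 genes in thymus and for 25 in spleen, so the comparison was also made within pools. The list mean was higher in thymus by 0.78 in pool 1 and by 0.68 in pool 2.

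The called members were Top2a, Kif11, Mki67, Ccna2, Prc1, Cdk1, Bub1, Ube2c, Cenpe and Plk1, which act in mitosis or its onset. A split of the list made after the values were seen put 16 genes of mitosis at a median of 0.97, with 10 called, and 12 genes of DNA replication and nucleotide supply at 0.33, with 0 called. Among the latter, the helicase subunits Mcm2 to Mcm7 had differences between 0.02 and 0.40, and Pcna, the replication clamp, read 9.72 and 9.45 in thymus and 9.67 and 9.32 in spleen. Kif11 alone of the called members was a stable call. The number of called members was 1 to 5 when 1 of the HET arrays was left out, and was 8 to 14 under the other settings. In the KO arrays the list median was 0.39, and 27 of 28 differences were positive.

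**Figure D3:**
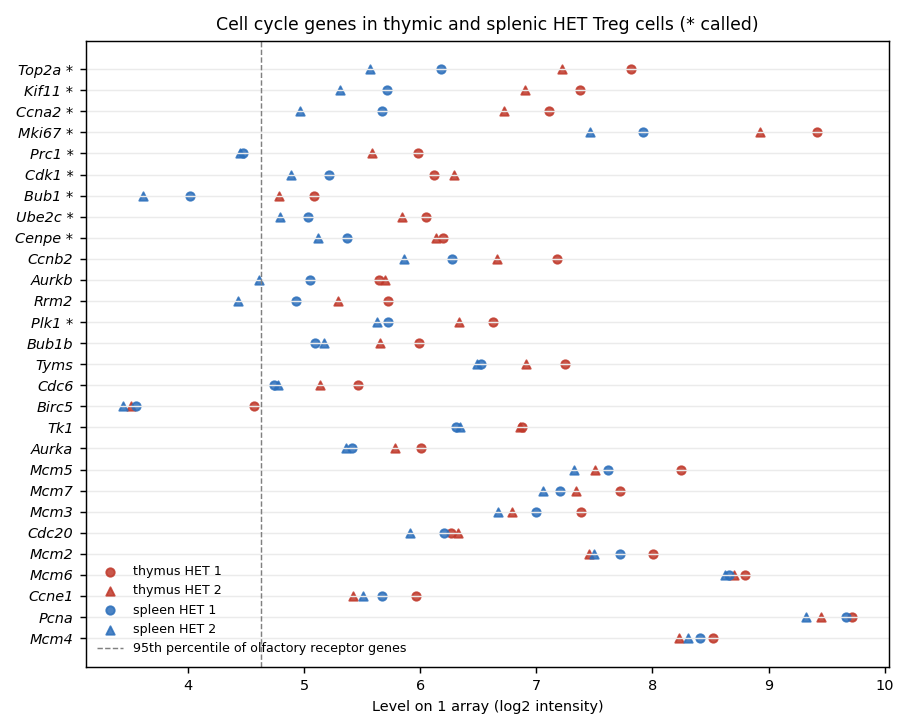
Levels of 28 cell cycle genes (x axis, log2 intensity) on the 4 HET arrays, ordered by the difference between organs, with called genes marked by an asterisk. Circles are pool 1, triangles pool 2, red thymus and blue spleen. Wide gaps at the top and narrow gaps at the bottom follow from the order of the rows. Mitotic genes lie mostly toward the top and Mcm genes toward the bottom, a grouping made after the values were seen.

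Promoters of 2 of these genes are shown because the called members moved together and their start regions share short motifs. RefSeq windows of 300 bases (250 before and 50 after the start, GRCm38.p6) were searched on both strands for 8 motifs. These were the CCAAT box (CCAAT), the cell cycle homology region, CHR (TTTGAA), an E2F site (TTTGGCGC), the NR4A response element (AAAGGTCA), an EGR site (GCGNGGGCG), an AP-1 site (TGANTCA), the gamma-activated sequence, GAS (TTCNNNGAA), and the interferon element described further on, whose letters can overlap a GAS. The CCAAT box stood in 9 of 9 called cell cycle genes with an entry and in 38.5% of 16990 promoters, and the CHR in 7 of 9 and in 15.8%. Over the 25 members of the cell cycle list with an entry, called or not, 20 held a CCAAT box and 12 a CHR. Of all 101 genes called higher in thymus with an entry, 42.6% held a CCAAT box and 30.7% a CHR, and of 89 called higher in spleen 33.7% and 18%. The other shares of all promoters were 0.736% for E2F, 1.29% for NR4A, 7.65% for EGR, 7.39% for AP-1 and 8.05% for GAS. These are descriptions of letters and not of bound factors. Capitals mark CCAAT boxes and CHR motifs on either strand, in Top2a (chr11:99024140-99024439, - strand) and Kif11 (chr19:37376132-37376431, + strand).
Top2a: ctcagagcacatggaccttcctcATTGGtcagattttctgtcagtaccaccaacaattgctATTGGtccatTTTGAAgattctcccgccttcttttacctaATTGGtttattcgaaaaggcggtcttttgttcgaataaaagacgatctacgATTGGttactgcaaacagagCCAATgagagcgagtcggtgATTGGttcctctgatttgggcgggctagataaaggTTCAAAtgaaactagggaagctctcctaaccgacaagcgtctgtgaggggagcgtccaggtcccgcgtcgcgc
Kif11: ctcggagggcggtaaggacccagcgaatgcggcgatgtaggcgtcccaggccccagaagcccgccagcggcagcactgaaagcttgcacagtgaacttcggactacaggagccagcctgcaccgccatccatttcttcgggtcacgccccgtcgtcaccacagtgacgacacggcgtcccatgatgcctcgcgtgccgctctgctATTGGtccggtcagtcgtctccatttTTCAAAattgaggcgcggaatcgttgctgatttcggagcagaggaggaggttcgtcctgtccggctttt
In Kif11 the CCAAT box lay at -45 and the CHR at -19 from the start. In Top2a there were 6 CCAAT boxes and 2 CHR motifs.

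Genes of earlier thymic stages were next. In immature single-positive thymocytes, 18 genes of the list were measured, with a median of 0.20, and 3 were called higher in thymus and 1 higher in spleen. Besides Kit these were Myb, a transcription factor of progenitors, at 8.60 and 8.87 in thymus and 7.50 and 7.50 in spleen (1.24, CI 0.95 to 1.53, adjusted p = 0.00113), and Sox4, another such factor, at 7.49 and 6.80 against 6.10 and 5.23 (1.48, adjusted p = 0.0280). The organs did not overlap for either gene. Sox4 lost its call without thymus HET replicate 1, spleen HET replicate 2 or either spleen KO array (highest adjusted p = 0.236). Igfbp4, a binding protein of insulin-like growth factors, went the other way, at 7.39 and 7.21 in thymus and 8.39 and 8.22 in spleen (-1.01, adjusted p = 0.00396; not called without spleen HET replicate 1, adjusted p = 0.0573). Satb1, a chromatin organiser needed for Treg cell development, differed by 0.30 and Lef1, a factor of naive T cells, by 0.04, neither passing.

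Of 10 measured genes of double-positive thymocytes, 9 had a positive difference, with a median of 0.36, and 1 was called. Dntt, the enzyme that adds bases at TCR junctions, read 5.20 and 4.84 in thymus and lay under background in spleen at 3.88 and 3.91, or at least 1.32-fold higher (measured difference 1.13, adjusted p = 0.00288). It was a stable call. Cd8a, the co-receptor of that stage, read 4.39 and 4.57 in thymus and 3.64 and 3.99 in spleen, and Rag2, which cuts TCR genes for rearrangement, 3.23 and 3.27 against 3.07 and 2.97. Both defining markers, with Arpp21 and Chrna9, lay under background on all 4 HET arrays. The log2 levels of the 10 genes, members under background included, summed to 48.2 to 49.9 in thymus and 44.0 to 45.5 in spleen. A sum of log2 levels does not measure a number of cells. The part of such cells in the other differences was not tested.

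The genes that define Treg cells most closely were not called. Foxp3, the lineage factor, read 11.24 and 11.24 in thymus and 10.96 and 10.94 in spleen, a difference of 0.29 (CI 0.03 to 0.55, adjusted p = 0.363). Il2ra, which encodes CD25 and was used in the sort, differed by 0.02 (CI -0.24 to 0.27) and Ctla4, an inhibitory receptor, by 0.07 (CI -0.21 to 0.35). The intervals of these 3 genes exclude a 2-fold difference, as do those of 97.9% of all genes. Ikzf2, which encodes Helios, had a difference of 0.39 (adjusted p = 0.256) and Nrp1, another neuropilin and a Treg cell surface protein, of 0.25 (adjusted p = 0.550).

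Of the 20 Treg identity genes, 4 were called higher in thymus and 2 higher in spleen, and the median was 0.13. Dusp4, an ERK phosphatase, read 9.33 and 8.70 in thymus and 7.64 and 7.53 in spleen (1.43, CI 1.03 to 1.83, adjusted p = 0.00307), a stable call. Tnfrsf4, which encodes the costimulatory receptor OX40, read 10.40 and 10.41 against 9.62 and 9.60 (0.80, adjusted p = 0.00883). Replicates of Tnfrsf4 differed by far less than the organs, but its call was lost when thymus HET replicate 2 or either spleen HET array was left out (highest adjusted p = 0.109). Itgae, the CD103 integrin chain, was higher by 0.71 and Ikzf4, the factor Eos, by 0.60, with adjusted p = 0.0314 and 0.0465, and both were lost without any 1 of the HET arrays (highest adjusted p = 0.250 and 0.407). In the other direction, Izumo1r, which encodes folate receptor 4, read 8.66 and 8.68 in thymus and 9.51 and 9.52 in spleen (-0.85, adjusted p = 0.00475; not called without either spleen HET array, highest adjusted p = 0.0769). Entpd1, the ectoenzyme CD39, had a difference of -0.73 and kept its call only in some settings (highest adjusted p = 0.323 without 1 array).

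**Figure D4:**
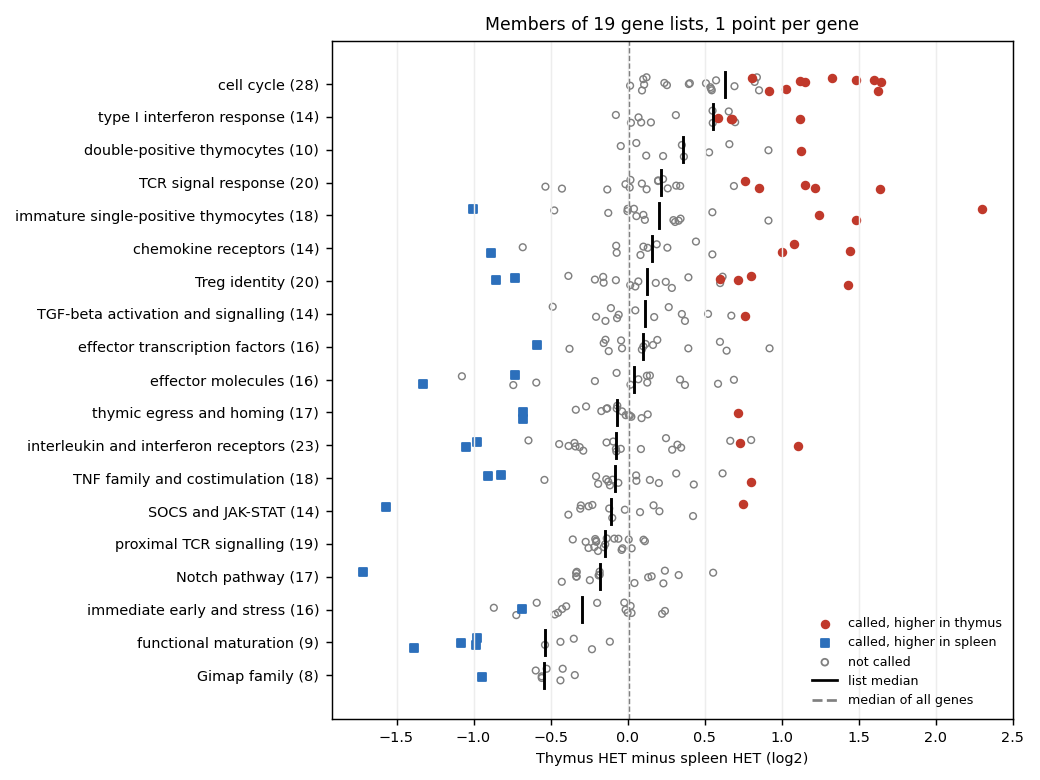
Difference thymus HET minus spleen HET (x axis, log2) of the members of 19 gene lists, 1 point per gene, with the number measured in brackets. Red circles were called higher in thymus, blue squares higher in spleen, open circles were not called, black bars are list medians and the dashed line is the median of all genes, 0.01; the cell cycle list has the highest median, 0.63, and the Gimap family the lowest, -0.54.

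Receptors that steer migration differed in both directions. Of 14 measured chemokine receptors, 3 were called higher in thymus. Ccr6, the receptor for CCL20, read 8.63 and 8.01 in thymus and 6.83 and 6.93 in spleen (1.44, CI 1.05 to 1.84, adjusted p = 0.00307), a stable call. Ccr8 read 8.26 and 7.82 against 6.95 and 6.97 (1.08, adjusted p = 0.00944). Cxcr6, the receptor for CXCL16, read 6.61 and 6.27 against 5.41 and 5.48 (1.00, adjusted p = 0.00975). The organs did not overlap for these 3, as for all 266 called genes. The calls of Ccr8 and Cxcr6 were lost without thymus HET replicate 1 or either spleen HET array (highest adjusted p = 0.0871 and 0.104). Cxcr5, which leads to B cell follicles, was higher in spleen at 8.13 and 7.93 against 7.46 and 6.83 (-0.88, adjusted p = 0.0427), and was lost without thymus HET replicate 2, either spleen HET array or any KO array (highest adjusted p = 0.319).

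The main genes of thymic egress were not called. S1pr1, the receptor by which T cells leave the thymus, read 9.53 and 9.46 in thymus and 9.47 and 9.47 in spleen (0.02, CI -0.24 to 0.29). Its activator Klf2 differed by -0.07 (CI -0.33 to 0.20) and Ccr7, a receptor for homing to lymph nodes, by 0.13 (CI -0.17 to 0.43). For these 3 genes the intervals exclude a 2-fold difference, as they do for 97.9% of all genes. Of 17 measured genes of egress and homing, Klf3 (-0.68, adjusted p = 0.0410) and Gpr183, an oxysterol receptor that places cells in the spleen (-0.68, adjusted p = 0.0309), were called higher in spleen and Itgae, described above, higher in thymus. The calls of Klf3 and Gpr183 were lost without any 1 of the HET arrays (highest adjusted p = 0.294 and 0.316).

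Among the genes called higher in spleen, Cybb had the largest difference. Cybb, the catalytic subunit of the phagocyte NADPH oxidase, read 6.09 and 5.19 in thymus and 7.88 and 7.50 in spleen (-2.05, CI -2.65 to -1.45, adjusted p = 0.00396), or 4.15-fold. Dtx1, a ubiquitin ligase and target of Notch signalling, read 7.25 and 7.18 against 8.89 and 8.97 (-1.72, CI -1.98 to -1.45, adjusted p = 0.000137). Both were stable calls, and Dtx1 had the narrower spread. Of 17 measured Notch pathway genes Dtx1 alone was called, with a list median of -0.18, and the Notch target Hes1 lay under background in both organs. Socs3, an inhibitor of STAT3 signalling, read 6.51 and 5.95 against 7.88 and 7.73 (-1.57, CI -1.94 to -1.20, adjusted p = 0.00128). Slamf7, a receptor of the SLAM family, read 5.47 and 4.95 against 6.80 and 6.65 (-1.52, adjusted p = 0.00288). Klrg1, a receptor of terminally differentiated lymphocytes, read 6.65 and 6.48 against 8.01 and 7.78 (-1.33, CI -1.64 to -1.02, adjusted p = 0.00114). All splenic arrays lay above all thymic arrays for these 5 genes, and Socs3, Slamf7 and Klrg1 were stable calls too.

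A set of 3 NAIP genes, sensors of bacterial proteins in inflammasomes, was higher in spleen. Naip6 read 5.98 and 6.07 in thymus and 7.64 and 7.93 in spleen (-1.77, adjusted p = 0.00307), and Naip5 read 5.99 and 5.77 against 7.19 and 7.04 (-1.24, adjusted p = 0.00288). Naip2 read 5.75 and 5.91 in spleen and under background on average in thymus (4.68 and 4.22), or at least 2.30-fold higher. Splenic arrays were above thymic arrays for all 3. Naip5 and Naip6 are close copies of each other, and the probe sets may not tell them apart, while Naip2 lost its call without thymus HET replicate 2 or spleen HET replicate 2 (highest adjusted p = 0.0922). Also among the 15 largest splenic differences were Pde2a, a phosphodiesterase of cyclic nucleotides (-1.45, adjusted p = 0.00194), Prag1 (-1.44, adjusted p = 0.000815), Cst7, an inhibitor of lysosomal cathepsins (-1.37, adjusted p = 0.00491), Chil5 (at least 1.11 higher in spleen) and Rflnb (-1.31, adjusted p = 0.00485). Of these, Pde2a and Prag1 were stable, while Cst7 was lost without thymus HET replicate 2 or spleen HET replicate 1 (highest adjusted p = 0.0518), Chil5 without spleen HET replicate 1 (0.0544) and Rflnb without thymus HET replicate 2 (0.0515).

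Genes of functional maturation, which T cells gain late in the thymus and after egress, had 9 measured members, all with a negative difference. Their median was -0.54, and 4 were called higher in spleen. Ly6c2, a surface protein of mature T cells, read 3.66 and 3.55 in thymus and 5.30 and 4.69 in spleen, or at least 1.29-fold higher there (measured difference -1.39, adjusted p = 0.00349), a stable call. Its near copy Ly6c1 lay under background in both organs. Il6ra, the receptor for IL-6, read 9.07 and 8.57 against 9.84 and 9.76 (-0.98, adjusted p = 0.0123), and Cd55, which protects cells from complement, read 5.53 and 5.78 against 6.82 and 6.65 (-1.08, adjusted p = 0.0165). These 2 calls were lost without thymus HET replicate 2 or either spleen HET array, and that of Cd55 also without thymus HET replicate 1 (highest adjusted p = 0.123 and 0.155). The 8 Gimap genes, GTPases that support survival of mature lymphocytes, all had splenic arrays above thymic arrays. The organs did not overlap, in either direction, for 44.9% of all genes. The Gimap differences lay between -0.94 and -0.34, with a median of -0.54. Gimap7 alone was called (7.38 and 6.99 against 8.15 and 8.11, -0.94, adjusted p = 0.00809, up to 0.0852 without 1 array). Both pools gave all 8 a negative difference, as did 29.3% of all genes.

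Cytokine receptors divided between the organs. Of 23 interleukin and interferon receptors, 2 were called higher in thymus. Il18r1, a subunit of the IL-18 receptor, read 8.64 and 8.28 in thymus and 7.35 and 7.36 in spleen (1.10, CI 0.79 to 1.42, adjusted p = 0.00307), a stable call, and Il17rb, a receptor for IL-25, was higher by 0.73 (adjusted p = 0.0161). Higher in spleen were Il6ra and Il10ra, the ligand-binding chain for IL-10, at 7.69 and 7.74 against 6.88 and 6.45 (-1.05, adjusted p = 0.00734). Il17rb and Il10ra were lost without thymus HET replicate 2 or either spleen HET array (highest adjusted p = 0.188 and 0.0871). In JAK-STAT signalling Stat5a, which carries IL-2 signals, was higher in thymus by 0.75 (adjusted p = 0.0246, up to 0.241 without 1 array) beside the lower Socs3. Tgfbr1, a receptor subunit for TGF-beta, was higher in thymus by 0.76 (adjusted p = 0.0171, up to 0.193). Of 18 genes of the TNF family and costimulation, the ligands Cd40lg (-0.90, adjusted p = 0.0264) and Fasl (-0.82 as measured, adjusted p = 0.0182) were higher in spleen. Tnfrsf4, described above, was higher in thymus. Fasl lay under background on average in thymus, so it was at least 0.64 higher in spleen on the log2 scale. Cd40lg and Fasl were also lost without some of the arrays (highest adjusted p = 0.192 and 0.156).

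Genes of effector Treg cells differed in few members. Of 16 effector transcription factors Maf, which drives IL-10, was called (7.18 and 7.17 in thymus, 7.77 and 7.76 in spleen, -0.59, adjusted p = 0.0359, up to 0.277 without 1 array and 0.0522 with the pool as a fixed replicate block), while Bhlhe40 had a difference of 0.92 without passing (adjusted p = 0.0584). Of 16 effector molecules Klrg1 and Entpd1 were called. Il10 itself lay under background in both organs, and the checkpoint receptors Tigit and Lag3 differed by 0.02 and -0.74 (adjusted p = 0.0608 for Lag3). In the Bcl2 family and among S100, annexin and galectin genes, 0 of 12 and 0 of 16 were called, with medians of 0.05 each.

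Type I interferon induces a set of antiviral genes. Of its 14 measured members 4 were called, all higher in thymus, and 13 of the differences were above 0, with a median of 0.55. Ifit1, which binds viral RNA, read 8.67 and 8.46 in thymus and 7.68 and 7.21 in spleen (1.12, CI 0.74 to 1.50, adjusted p = 0.00912). Rsad2, an antiviral enzyme, read 6.14 and 6.31 against 5.66 and 5.46 (0.67, adjusted p = 0.0497), and Xaf1, a proapoptotic factor, 7.93 and 7.91 against 7.35 and 7.31 (0.59, adjusted p = 0.0466). The organs did not overlap for these genes. Mx1 was called but lay under background on average in both organs. With the mouse pool as a fixed replicate block Rsad2 and Xaf1 were not called (adjusted p = 0.0643 and 0.0626). The number of called members was 0 to 1 without 1 of the HET arrays and 1 to 6 under the other settings. The KO arrays gave a median of 0.54.

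The interferon-stimulated response element (ISRE) was among the motifs searched, as its core of TTTC and TTTC with a pair of free bases between, on either strand. It stood in 3.35% of all promoters, in 9 of 101 genes called higher in thymus (8.91%), in 7 of 89 called higher in spleen (7.87%), and in 6 of 10 interferon response genes with an entry. Ifit1 is shown as a called gene of that list and Cybb as the gene with the largest called splenic difference, with ISRE cores in capitals, in Ifit1 (chr19:34640639-34640938, + strand) and Cybb (chrX:9469275-9469574, - strand).
Ifit1: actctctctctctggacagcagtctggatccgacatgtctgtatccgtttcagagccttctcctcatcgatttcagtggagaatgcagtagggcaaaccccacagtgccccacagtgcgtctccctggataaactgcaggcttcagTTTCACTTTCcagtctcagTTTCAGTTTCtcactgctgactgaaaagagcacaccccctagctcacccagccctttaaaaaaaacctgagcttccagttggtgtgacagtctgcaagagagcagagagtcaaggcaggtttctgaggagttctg
Cybb: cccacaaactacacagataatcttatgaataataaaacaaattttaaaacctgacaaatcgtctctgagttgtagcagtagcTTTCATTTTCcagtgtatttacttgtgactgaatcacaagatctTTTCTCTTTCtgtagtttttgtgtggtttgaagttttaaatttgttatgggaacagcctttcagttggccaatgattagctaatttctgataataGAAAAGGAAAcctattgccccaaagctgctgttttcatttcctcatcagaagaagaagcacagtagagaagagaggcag
The cores in Ifit1 lay at -104 and -85. Cybb held 3, at -168, -124 and -29, beside 1 AP-1 site, 1 CHR and 1 CCAAT box that are not in capitals. A match describes letters and draws nothing about a factor. Kit, Nrp2, Pde7b and Naip6 held none of the 8 motifs in this window.

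Markers of other cells were read beside these results. Of 8 measured B cell markers 5 lay under background on all 4 HET arrays, among them Ms4a1 and Pax5. Ighm, the heavy chain of IgM, read 10.34 and 10.14 in thymus and 11.02 and 10.97 in spleen (-0.75, adjusted p = 0.0161, up to 0.168 without 1 array), while Cd79b differed by -0.13 and Cd79a lay at 4.37 to 4.69. Jchain, the joining chain of secreted IgM and IgA, read 3.24 and 4.27 in thymus and 6.22 and 5.39 in spleen, at least 2.26-fold higher there (adjusted p = 0.0151, up to 0.137 without thymus HET replicate 1 or spleen HET replicate 1). The other measured plasma cell markers, Sdc1, Mzb1 and Derl3, had differences of 0.31, 0.28 and 0.17. The log2 levels of B cell markers, members under background included, summed to 40.0 to 40.1 in thymus and 39.6 to 40.0 in spleen. Those of plasma cell markers summed to 18.6 to 20.1 and 20.01 to 21.3. Such sums do not show the differences of single members such as Ighm. Of 18 immunoglobulin segment genes 15 had a negative difference, with a median of -0.48, and 3 were called higher in spleen. The one with the largest difference, a kappa segment, read 6.92 and 3.89 in the splenic replicates and 2.32 and 2.21 in thymus, and was not called (adjusted p = 0.167). The part of B lineage RNA in the splenic values was not tested.

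For the other cell types, 7 of 11 myeloid markers lay under background on all 4 HET arrays, 2 lay over it on all 4, and 0 were called. The log2 levels of the myeloid list summed to 45.1 to 46.5 in thymus and 44.5 to 45.8 in spleen. Of 8 measured thymic stroma markers 2, Krt14 and Psmb11, lay under background on all 4 HET arrays, and 5 lay over it on all 4. None were called, and the sums were 42.0 to 42.4 in thymus and 41.3 to 41.7 in spleen. Among 7 markers of innate-like and NK cells, Xcl1, a chemokine of activated lymphocytes, was called higher in thymus at 7.09 and 7.15 against 5.65 and 5.72 (1.43, adjusted p = 0.00659, up to 0.0556). Ncr1, Klrd1 and Klrb1c lay under background, and 2 of the 7 lay over it on all 4 HET arrays. The log2 levels of that list summed to 33.7 to 35.2 in thymus and 31.8 to 32.0 in spleen. The part of such cells in single genes was not tested.

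The KO arrays give the same comparison in mice that share no array with the HET difference. Of the 266 genes called in HET cells, 265 had the same sign in KO cells, against 66.6% of all genes. For 254 the KO arrays of the organs did not overlap in the same direction (95.5%, against 34% of all genes). The spread between KO replicates also entered the fit that called the 266, so this non-overlap is not independent of the calls. The median difference of the 137 thymic genes was 0.93 in HET and 0.79 in KO, and that of the 129 splenic genes -0.86 and -0.81. Over the 266 genes the 2 differences had r = 0.94, and over all 22180 genes r = 0.60, both as descriptions, since genes are not independent replicates and the 266 were chosen for their HET difference. The differences were larger in size in KO cells for 98 of the 266 (36.8%) and for 54.2% of all genes. Kit gave 2.30 in HET and 2.64 in KO, Nr4a3 1.64 and 1.67, Dtx1 -1.72 and -1.70, and Cybb -2.05 and -2.24.

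**Figure D5:**
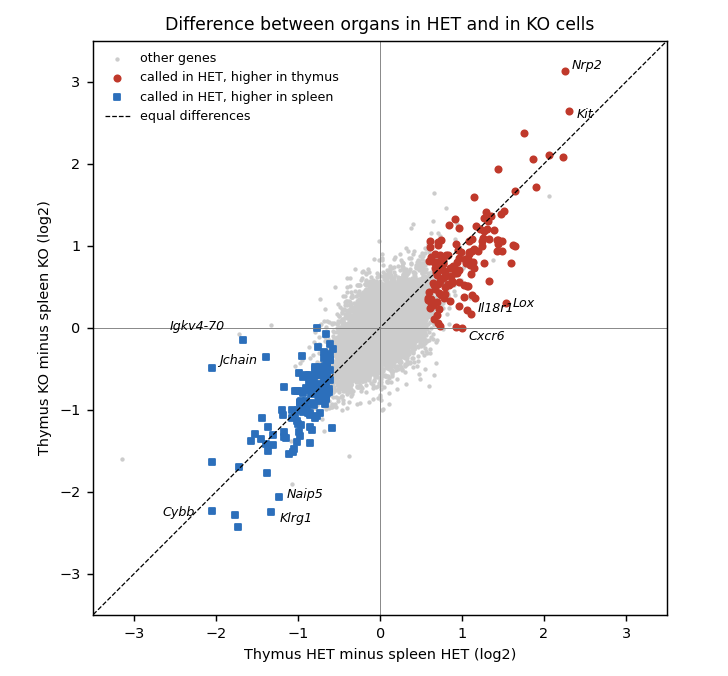
Difference between thymus and spleen in HET cells (x axis, log2) against that in KO cells (y axis, log2) for all genes, with genes called in HET cells in colour (red circles higher in thymus, blue squares higher in spleen) and the line of equal differences dashed. Of 266 coloured genes 265 lie in the quadrants of equal sign, and Cxcr6, at 1.00 in HET and -0.01 in KO, is the exception.

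The test of the difference between both genotypes, the genotype by tissue interaction in limma, called 0 of 22180 genes (0%), and 813 had an unadjusted p under 0.05. The lowest adjusted p among the 266 was 1.00. Values for some genes still lay apart. Cxcr6 read 5.80 and 5.52 in the KO thymus and 5.79 and 5.54 in the KO spleen, so that the organs overlapped, and its interaction was 1.01 (CI 0.52 to 1.50). Il18r1 gave 1.10 in HET and 0.17 in KO (interaction 0.93, CI 0.49 to 1.37), and Il17rb gave 0.73 and 0.03. Lox read 4.78 and 4.27 in the KO thymus against 6.33 and 5.51 in the HET thymus (interaction 1.24, CI 0.50 to 1.98). Jchain differed by -2.05 in HET and by -0.49 in KO as measured (interaction -1.56, CI -2.63 to -0.48). Jchain lay under background on the HET thymus arrays and all KO arrays, and Lox on all spleen arrays. The sizes of their differences and interactions are therefore not settled. The difference was larger in KO for other genes. Klrg1 gave -1.33 in HET and -2.25 in KO (interaction 0.93, CI 0.49 to 1.36), Naip5 -1.24 and -2.06, Maf -0.59 and -1.23, and Nrp2 2.25 and 3.14 (interaction -0.88, CI -1.47 to -0.29). These genes were picked after their values were seen, and none passed over all genes. Xist also separated these genotypes, as given above, and the sexes behind it cannot be told apart from the genotype.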

How the data were processed

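Treg cell RNA was hybridised to Affymetrix mouse arrays, 2 per organ and genotype. The authors deposited log2 intensities made with the Bioconductor package oligo (version and normalization not given in the sources used here). The study's methods name another array design than the probe set identifiers, which were followed with the platform's annotation. Of 41345 probe sets, 23521 had 1 gene symbol, 1820 several and 16004 none listed. The probe set with the highest mean over the 8 arrays was kept for each of 22180 genes. No filter on level was applied. Arrays give no read depth, and their number limits the precision.

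limma 3.58.1 in R 4.3.3 was fitted to all 8 arrays with 4 group means (4 residual degrees of freedom), with Benjamini-Hochberg adjustment over all genes, for the HET difference and the interaction. On simulated data for the HET difference in 22180 genes, 99 of 100 genes changed by 2 on the log2 scale and 79 of 100 changed by 1 were recovered, with 8 false calls. The simulated noise was normal and independent between genes and arrays, with no pool or array effect. These rates check the code and need not hold for the real arrays. Each array is a pool. The p-values rest on the spread between the 2 pools within each of the 4 groups, with the variance of a gene drawn toward that of all genes. The main fit did not pair the organs of a pool. The labels tie the thymus and spleen arrays of a number to 1 pool. Over all genes, replicate 1 minus 2 in thymus correlated with that in spleen at 0.12 in HET and 0.02 in KO. Named were the 15 largest called differences per direction over background (predicted genes, gene segments and microRNAs left out), up to 4 called members per list and direction by p, or the 2 lowest p where none was called, and a few genes chosen beforehand. Other members are named as examples after their values were seen. Members and lists were chosen with earlier results of these data known. Sequences are from RefSeq (GRCm38.p6). Alternatives were a level filter, quantile normalization, other variance settings, other probe set rules, HET arrays alone, replicate blocks and each array left out.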

Additional observations from a re-analysis of the deposited data

Results flagged for a closer look

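Of the probe sets outside the gene comparison, 2 with large called differences are given because their signal lay above the level in the other organ. Probe set 17285867, which the annotation gives to several H2A histone genes, was higher in the HET thymus by 2.19 on the log2 scale (CI 1.79 to 2.60, adjusted p = 0.0191 in limma over all probe sets). It read 7.35 and 7.19 in thymus and 5.18 and 4.97 in spleen, and the KO arrays read 7.70 and 7.26 against 5.84 and 5.73. Probe set 17467474, with no gene listed in the annotation used, was lower in thymus as measured, at -2.43 (CI -2.82 to -2.03, adjusted p = 0.0168), with 2.17 and 2.33 in thymus and 4.69 and 4.66 in spleen. The thymic levels are bounds under the background of 4.63 and the splenic ones stood just over it, so the size of the difference is not settled. The KO arrays of that probe set read 2.07 and 2.51 in thymus and 2.55 and 2.37 in spleen, so the organs overlapped there.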

How the results depend on the processing

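The HET comparison gave 137 genes higher in thymus and 129 higher in spleen. Leaving out 1 array gave 31 to 152 and 32 to 133, and 33.9% of calls were higher in thymus without thymus HET replicate 1 and 70.6% without thymus HET replicate 2, against 51.5%. Genes at or over the median level alone gave 191 and 210. The 4 HET arrays alone gave 106 and 80. Every probe set tested alone gave 11 and 7, and, chosen after seeing the data, every probe set at or over the median level of genes gave 39 and 33. The paired fit with the pool as a fixed replicate block gave 186 and 158, and as a random block 173 and 153, with 248 and 266 of the 266 calls shared. Of the 81 called genes picked by the naming rule, the fixed block lost Maf, Rsad2 and Xaf1 and no other. Quantile normalization gave 139 and 94, trend and robust variance 346 calls in all, and the mean of probe sets 126 and 122. The interaction had 0 calls in limma under each setting run. The causes of these changes were not tested. With 2 arrays a group, the 95% interval reached a median of 0.31 to either side of the difference over all genes, and levels under 4.63 are bounds.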

Other observations

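Families noticed among the called genes are given as values, from lists chosen after their values were seen, so their counts support nothing. Of 17 measured interferon-inducible GTPases, which attack vacuoles that hold microbes, all had a negative difference, with a median of -0.55 in HET and -0.65 in KO, and 5 were called higher in spleen. Gbp3 read 6.13 and 6.03 in thymus and 7.19 and 7.35 in spleen (-1.20), a stable call, and Iigp1 read 7.83 and 7.92 against 8.67 and 8.80 (-0.86). The organs did not overlap for either gene. The ISRE core stood in 8 of 8 of their promoters with an entry. Several of these GTPases are close copies, and probe sets may not tell them apart.

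Of 18 measured genes of cholesterol synthesis 16 had a negative difference, with a median of -0.47 in HET and -0.53 in KO. Cyp51, which removes methyl groups from lanosterol, and Sqle, which makes squalene epoxide, were called higher in spleen, with differences of -1.18 and -0.90. Among 12 Toll-like receptors, Tlr1 read 8.42 and 8.20 in thymus and 9.35 and 9.35 in spleen and was a stable call, and Tlr6 had a difference of -0.84. Of the phagocyte oxidase genes, Ncf1, a cytosolic subunit, was higher in thymus by 0.90, opposite to Cybb. Casp1, the inflammasome protease, read 7.59 and 6.97 in thymus and 8.26 and 8.35 in spleen, while the NAIP partner Nlrc4 lay under background on all 4 HET arrays.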
